A study of Mus musculus with 38 samples.

Results

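H3K27ac peaks of EpdSCs after 6 weeks of SOX9 (W6) were compared with those of grafted skin after 12 weeks (W12). The members were all peaks of both lists, 64501 regions of the 310266 regions in the 7 lists of H3K27ac peaks and H3K4me1 domains used from the series. The W6 list held 30516 peaks and the W12 list 33985. A peak that overlapped a peak of the other list by at least 1 bp was called shared, and a peak that did not was called W6-only or W12-only. Each class was then split by overlap with an H3K4me1 domain of W12, which gave 4 classes of unshared peaks.

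Acetylation of histone H3 at lysine 27 is found on the nucleosomes beside active promoters and active enhancers. Monomethylation at lysine 4 of the same histone covers wider stretches and also marks enhancers that are primed but not active. H3K27ac that lies within H3K4me1 is commonly read as an enhancer in use. In skin, SOX9 is a transcription factor of hair follicle stem cells and of the outer root sheath, and it is absent from the epidermal stem cells between the follicles, the EpdSCs.

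All samples came from male mice of the genotype K14rtTA; TRE-myc-Sox9, in which the keratin 14 promoter drives the doxycycline-dependent activator in basal skin epithelium and doxycycline (DOX) then turns on the Sox9 transgene. The W6 samples were taken from back skin of mice that received DOX from postnatal day 21, and the W12 samples from skin of newborn pups of that genotype that was grafted onto adult immunodeficient Nude females and given DOX after healing. EpdSCs were sorted in both cases by absence of CD31, CD45, CD117, CD140a and CD34, high CD49f and high Ly6A. MINT-ChIP, a barcoded ChIP-seq on MNase-digested chromatin, gave 4 W6 H3K27ac libraries (2 replicates, each with a high and a low MNase digest) and 2 libraries that carried 2 W12 replicates together with a W2 replicate. The duration of SOX9, the grafting, the host and the age of the skin differ together between W6 and W12 and cannot be told apart. The peaks of each time point had been called on the pooled replicates, so no spread between replicates is available, no difference between W6 and W12 was tested, and the 95% Clopper-Pearson intervals given here cover counting error only. The background pileup recovered from the steps of the fold enrichment was 0.677 at W6 and 0.412 at W12. Total read numbers are unknown from the peak lists.

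Klf5 and Med13l were nearest to the most W12-only peaks in a W12 H3K4me1 domain, and Lrig1 and Nfib to the most W6-only peaks. The 300 bp around the summit of the highest-scoring unshared peak at each are shown as examples of the peaks counted. These peaks lay 250 kb (Klf5), 108 kb (Med13l), 63.7 kb (Lrig1) and 439 kb (Nfib) from the nearest start site of the gene. Each was assigned by distance alone, which does not show that it regulates the gene. Sequences are from GRCm38, forward strand, and capitals mark matches to 6 short letter strings searched on both strands. For SOX factors the letters were ACAATG, for RUNX they were TGTGGT, for AP1 they were TGANTCA with any base at N, for GATA factors they were AGATAA, for GLI they were GACCACCC and for TEAD they were GGAATG. The Med13l and Lrig1 windows each held 1 RUNX and 1 TEAD string, and the windows of Klf5 and Nfib held none of the 6. The Klf5 window was 62.3% repeat-masked, and 79.9% of its 32-base stretches occurred once in the chromosomes of GRCm38, whereas all of those in the other 3 windows did.
W12-only peak near Klf5, chr14:99549566-99549865: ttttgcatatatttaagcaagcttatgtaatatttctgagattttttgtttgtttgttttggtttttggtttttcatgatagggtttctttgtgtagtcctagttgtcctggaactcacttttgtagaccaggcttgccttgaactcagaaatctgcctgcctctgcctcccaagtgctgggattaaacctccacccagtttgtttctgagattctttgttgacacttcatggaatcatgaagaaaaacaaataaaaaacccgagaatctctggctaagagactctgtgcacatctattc
W12-only peak near Med13l, chr5:118451929-118452228: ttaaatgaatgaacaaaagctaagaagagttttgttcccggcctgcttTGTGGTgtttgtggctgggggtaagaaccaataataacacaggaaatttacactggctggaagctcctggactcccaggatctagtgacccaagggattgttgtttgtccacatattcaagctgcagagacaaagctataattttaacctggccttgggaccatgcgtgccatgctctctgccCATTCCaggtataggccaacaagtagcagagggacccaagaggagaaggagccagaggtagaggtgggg
W6-only peak near Lrig1, chr6:94635759-94636058: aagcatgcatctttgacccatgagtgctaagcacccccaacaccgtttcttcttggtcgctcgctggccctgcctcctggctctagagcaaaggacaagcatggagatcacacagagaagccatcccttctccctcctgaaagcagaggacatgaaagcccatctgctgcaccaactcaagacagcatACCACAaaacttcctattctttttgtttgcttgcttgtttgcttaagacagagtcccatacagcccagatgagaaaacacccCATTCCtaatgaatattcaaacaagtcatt
W6-only peak near Nfib, chr4:82065997-82066296: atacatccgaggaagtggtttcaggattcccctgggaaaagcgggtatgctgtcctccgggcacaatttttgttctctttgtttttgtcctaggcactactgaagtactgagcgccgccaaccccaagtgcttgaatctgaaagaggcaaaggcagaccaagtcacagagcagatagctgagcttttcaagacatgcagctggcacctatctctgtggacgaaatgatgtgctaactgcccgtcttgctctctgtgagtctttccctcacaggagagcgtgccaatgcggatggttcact

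The windows of the 2 highest-scoring peaks of each of the 4 classes are shown in the same format because they lead their classes and differ in how far their letters recur in the chromosomes of GRCm38. Of the 32-base stretches, 35.7% near Limd1, 47.6% near Gphn, 45.0% near Gm10800 and 33.8% near Rdm1 occurred once. No stretch in these 4 windows occurred more than 8 times in these chromosomes. Copies missing from the assembled chromosomes were not counted, so a low count does not show that a sequence is low in copies. The windows near Limd1 and Gphn shared an identical run of 37 bases. The window near Denr consisted largely of short tandem units, and 26.8% of its stretches occurred once. At Klhl21, Map2k6 and Tmem181a the shares were 87.4%, 76.6% and 82.9%. The most frequent stretch, however, occurred 1039301 times at Klhl21 and at Map2k6, 200415 times at Denr and 96 times at Tmem181a. The share found once does not show how often the other stretches of a window recur. Over the 8 highest-scoring peaks of each class, the windows in which most stretches occurred once were 5 of 8 in either W6-only class and 6 of 8 in either W12-only class.
W6-only in H3K4me1, near Limd1, chr9:123461879-123462178: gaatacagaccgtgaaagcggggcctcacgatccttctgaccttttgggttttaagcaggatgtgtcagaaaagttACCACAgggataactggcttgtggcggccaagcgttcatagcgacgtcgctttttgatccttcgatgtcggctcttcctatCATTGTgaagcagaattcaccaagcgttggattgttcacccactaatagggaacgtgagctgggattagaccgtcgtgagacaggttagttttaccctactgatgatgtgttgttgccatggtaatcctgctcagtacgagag
W6-only in H3K4me1, near Gphn, chr12:78350811-78351110: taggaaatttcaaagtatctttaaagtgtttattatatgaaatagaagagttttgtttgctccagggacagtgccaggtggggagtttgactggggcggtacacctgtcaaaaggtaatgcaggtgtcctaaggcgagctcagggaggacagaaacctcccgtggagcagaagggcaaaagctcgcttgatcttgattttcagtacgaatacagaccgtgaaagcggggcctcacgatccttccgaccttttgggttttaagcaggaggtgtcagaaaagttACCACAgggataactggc
W6-only outside H3K4me1, near Gm10800, chr2:98664961-98665260: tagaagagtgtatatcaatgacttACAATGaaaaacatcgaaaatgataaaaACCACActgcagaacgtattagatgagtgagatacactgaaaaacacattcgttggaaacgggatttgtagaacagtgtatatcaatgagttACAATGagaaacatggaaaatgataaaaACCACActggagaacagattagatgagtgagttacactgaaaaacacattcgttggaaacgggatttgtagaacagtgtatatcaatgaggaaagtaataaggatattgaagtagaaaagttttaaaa
W6-only outside H3K4me1, near Rdm1, chr11:101645906-101646205: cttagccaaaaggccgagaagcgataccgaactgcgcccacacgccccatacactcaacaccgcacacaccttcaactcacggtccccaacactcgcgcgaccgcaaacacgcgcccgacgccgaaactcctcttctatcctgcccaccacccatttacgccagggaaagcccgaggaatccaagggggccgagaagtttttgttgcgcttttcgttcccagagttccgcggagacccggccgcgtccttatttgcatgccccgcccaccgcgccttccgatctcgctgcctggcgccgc
W12-only in H3K4me1, near Klhl21, chr4:152017007-152017306: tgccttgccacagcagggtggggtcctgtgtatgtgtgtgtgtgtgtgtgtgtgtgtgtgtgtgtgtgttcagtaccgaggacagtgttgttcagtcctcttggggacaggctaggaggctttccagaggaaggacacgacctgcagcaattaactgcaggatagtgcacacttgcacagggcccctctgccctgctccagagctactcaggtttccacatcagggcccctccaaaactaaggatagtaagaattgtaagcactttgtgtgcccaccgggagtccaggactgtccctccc
W12-only in H3K4me1, near Denr, chr5:123903207-123903506: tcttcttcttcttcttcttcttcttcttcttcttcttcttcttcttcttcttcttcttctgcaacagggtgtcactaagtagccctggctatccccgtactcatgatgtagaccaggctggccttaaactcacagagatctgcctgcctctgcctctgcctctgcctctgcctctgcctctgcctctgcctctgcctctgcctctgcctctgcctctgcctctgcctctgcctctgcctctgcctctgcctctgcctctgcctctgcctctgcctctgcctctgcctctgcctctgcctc
W12-only outside H3K4me1, near Map2k6, chr11:110567589-110567888: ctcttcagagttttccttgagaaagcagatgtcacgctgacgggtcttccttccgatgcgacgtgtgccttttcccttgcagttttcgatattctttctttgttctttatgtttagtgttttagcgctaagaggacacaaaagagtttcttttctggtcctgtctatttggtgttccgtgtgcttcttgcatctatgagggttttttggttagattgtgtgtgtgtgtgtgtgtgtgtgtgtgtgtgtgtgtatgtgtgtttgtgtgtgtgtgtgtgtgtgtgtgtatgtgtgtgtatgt
W12-only outside H3K4me1, near Tmem181a, chr17:6209359-6209658: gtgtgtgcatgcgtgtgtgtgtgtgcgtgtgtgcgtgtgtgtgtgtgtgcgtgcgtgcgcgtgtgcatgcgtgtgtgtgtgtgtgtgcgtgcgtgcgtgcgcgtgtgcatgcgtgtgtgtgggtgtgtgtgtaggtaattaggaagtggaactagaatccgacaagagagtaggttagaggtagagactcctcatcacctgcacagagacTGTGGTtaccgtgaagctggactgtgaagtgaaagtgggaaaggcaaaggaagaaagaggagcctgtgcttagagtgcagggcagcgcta

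At W6, 15324 of 30516 peaks (50.2%, 95% interval 49.7 to 50.8) had no W12 peak, and at W12, 17640 of 33985 (51.9%, 51.4 to 52.4) had no W6 peak. MACS2 gives each peak a score that grows with its confidence, and sharing followed this score closely. Each list was divided into 4 groups of equal size by score. In the lowest group of W6 scores (13 to 39) 21.1% of peaks had a W12 peak, and in the highest (161 to 9044) 85.3% did. The W12 list ran from 11.9% in its lowest group (13 to 28) to 87.6% in its highest (75 to 35442). Of all W12-only peaks, 42.4% lay in the lowest group and 5.99% in the highest, and of all W6-only peaks 39.3% and 7.32%. When both lists were shortened to their 15258 top-scoring peaks, the unshared share was 42.1% at W6 and 37.4% at W12.

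**Figure D1:**
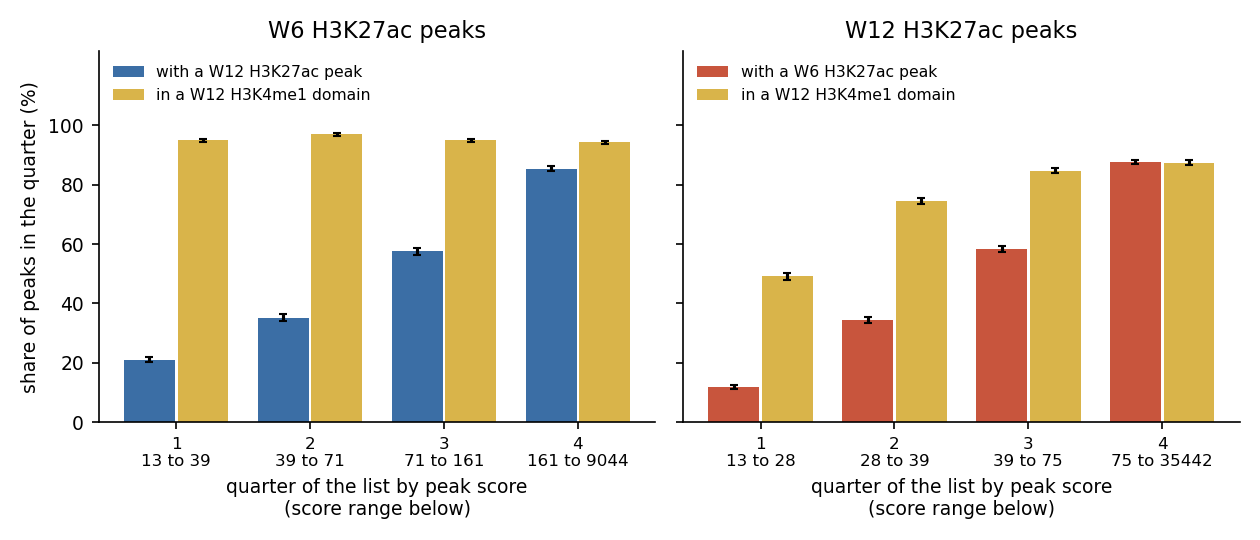
The bars show the share of peaks, in percent, that overlap a peak of the other time point (blue or red) or a W12 H3K4me1 domain (yellow), for each of the 4 score groups, lowest to highest, of the W6 list (left) and the W12 list (right); error bars are 95% Clopper-Pearson intervals. Sharing goes from 21.1% to 85.3% across the W6 groups and from 11.9% to 87.6% across the W12 groups, whereas the H3K4me1 share stays between 94.3% and 96.9% at W6 and goes from 49.1% to 87.4% at W12.

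The H3K4me1 landscape separated the unshared peaks of the 2 time points. Of the W6-only peaks, 14510 (94.7%, 94.3 to 95) lay in a W12 H3K4me1 domain, although no W12 H3K27ac peak overlapped them. In 44.7% of the 14510 the domain held a W12 H3K27ac peak elsewhere. Shared W6 peaks were in a W12 domain in 95.8% of cases, which is about as often. Of the W12-only peaks, 10191 (57.8%, 57 to 58.5) lay in a W12 domain and 7449 (42.2%) lay outside, against 8.65% of shared W12 peaks outside. The share in a domain went with score, from 43.1% of the W12-only peaks in the lowest score group to 74.9% in the third and 70.3% in the highest. With both lists shortened to equal length it was 83.2%.

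Most H3K4me1 beneath the W12-only peaks was already called at W6. Of the W12-only peaks in a W12 domain, 91.7% (91.2 to 92.2) also lay in a W6 domain. This was below the 98.5% of shared W12 peaks and the 99.4% of W6-only peaks in a W12 domain. Outside a W12 domain, 8.14% of W12-only and 61.2% of shared W12 peaks lay in a W6 domain. Among the 814 W6-only peaks outside a W12 domain, 469 (57.6%, 54.1 to 61.0) lay in a W6 domain. At these places both marks were called at W6 and neither at W12. Of the shared W6 peaks outside a W12 domain, 59.8% (55.9 to 63.6) lay in a W6 domain, so this share was not particular to W6-only peaks. Taken domain by domain, 12751 of 74316 W12 domains (17.2%) held H3K27ac peaks of both time points, 8098 (10.9%) held W6 peaks only, 5385 (7.25%) held W12 peaks only and 48082 (64.7%) held neither. Domains with both were the widest, with a median of 5200 bp against 3400 bp for those with either alone and 2200 bp for those with neither.

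Over all unshared peaks, 21.3% of W6-only peaks lay within 1000 bp of a W12 peak, and 13.7% of W12-only peaks lay as near to a W6 peak. The median gap was 5722 bp for W6-only and 17655 bp for W12-only peaks. Of the W6-only peaks in a W12 domain, 44.7% (43.8 to 45.5) shared that domain with a W12 peak, and of the W12-only peaks in a domain 43.2% (42.2 to 44.2) shared it with a W6 peak. The median gap from a W12-only peak to the nearest W6 peak was 6851 bp in a domain and 56060 bp outside. Within 1000 bp of a W6 peak lay 23.0% of the former and 1.09% of the latter. For W6-only peaks the median gap to a W12 peak was 5359 bp in a domain and 16995 bp outside.

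Promoters and distal sites were divided very differently between the 2 directions. Of the W6-only peaks, 3591 (23.4%, 22.8 to 24.1) had their summit within 1000 bp of the start site of a protein-coding gene, and of the W12-only peaks 648 (3.67%, 3.4 to 3.96). The shared peaks were at promoters in 43.8% of W6 and 42.8% of W12 cases. Over 2500 bp from any annotated start site lay 63.2% (62.4 to 64.0) of the W6-only and 84.9% (84.4 to 85.4) of the W12-only peaks, against 45.2% and 44.5% of the shared peaks of W6 and W12. With both lists shortened to equal length these shares were 39.5% for W6-only and 80.3% for W12-only peaks, and with a limit of 10000 bp they were 40.2% and 58.9%.

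**Figure D2:**
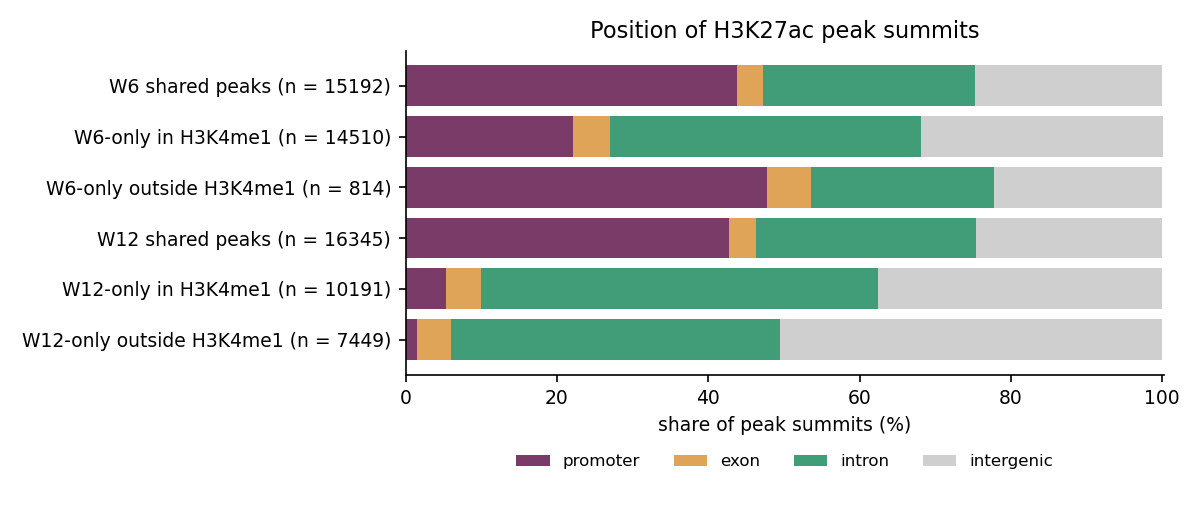
The stacked bars give the share of peak summits, in percent, at promoters (within 1000 bp of a protein-coding start site), in other exons, in introns and between genes, for shared peaks and the unshared classes of each list. Promoters make up 43.8% and 42.8% of shared peaks but 5.27% of W12-only peaks in H3K4me1 and 1.49% of those outside, and 22.1% and 47.8% of the corresponding W6-only classes.

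Counted by gene, 7523 of 21911 protein-coding genes (34.3%) had a promoter H3K27ac peak at both time points, 3072 (14.0%) at W6 alone, 409 (1.87%) at W12 alone and 10907 (49.8%) at neither. Where both time points had a peak, the median fold enrichment over background, taking the highest peak per promoter, was 14.3 at W6 and 7.79 at W12, and it was higher at W12 for 712 genes (9.46%). Promoters with a peak at W6 alone had a median fold of 8.35, below that of the promoters that were marked at both. Promoters with a peak at W12 alone had a median of 4.96. Fold enrichments of the 2 lists were computed against different backgrounds, so the levels are given side by side and not as a change.

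Most W6-only peaks had already been called before W6. Of these peaks 69.5% (68.8 to 70.2) overlapped a peak at D0 (uninduced), W1 or W2, 40.9% overlapped one at D0, and 22.3% had one at all 3. Of the W6-only peaks, 22.1% were found at W2 but not at D0. The W12-only peaks had less of a past. In a W12 domain 35.4% (34.5 to 36.3) had been seen at D0, W1 or W2, with 19.5% at D0, and outside a domain 2.36% (2.03 to 2.73) had. Shared peaks had been seen before in 94.3% of W6 and 94.0% of W12 cases. Over all W12-only peaks the share seen before was 21.5%, and it was 58.2% with both lists shortened to equal length, when the corresponding W6-only value was 92.4%. D0, W1, W2 and W6 were ungrafted back skin, so that history and grafting cannot be told apart in this count.

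**Figure D3:**
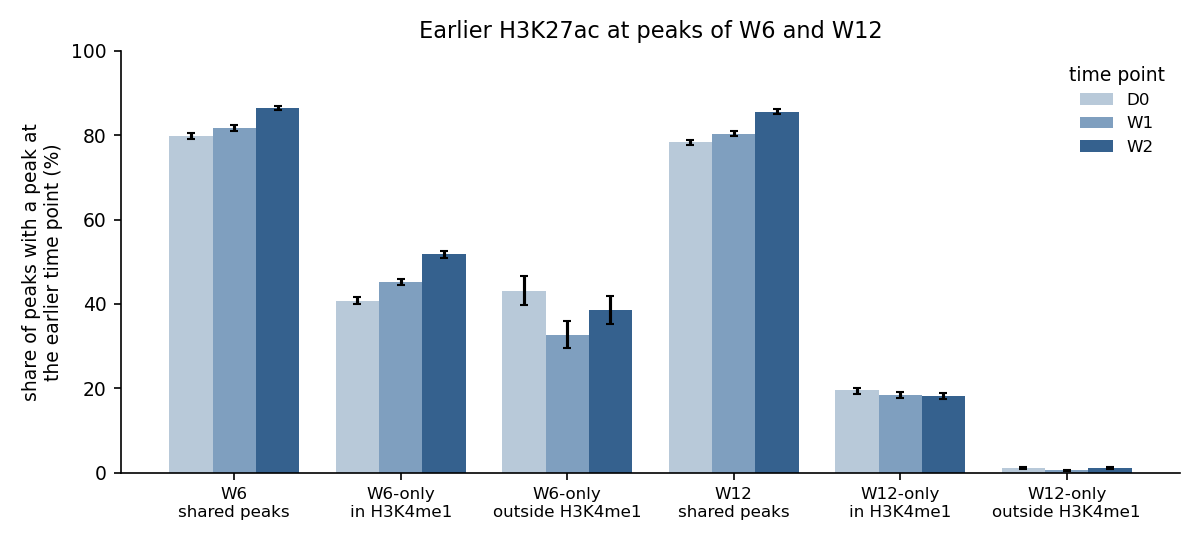
The bars show the share of peaks, in percent, that overlap an H3K27ac peak at D0, W1 or W2, for shared peaks and the unshared classes of each list, with 95% Clopper-Pearson intervals. Shared peaks reach 86.5% at W2, W6-only peaks in H3K4me1 lie between 40.8% and 51.8%, W12-only peaks in H3K4me1 between 18.2% and 19.5%, and those outside at most 1.17%.

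Unshared peaks were weaker and narrower than shared ones in both lists. At W6 the median fold was 5.37 (quartiles 4.72 and 7.16) for W6-only and 9.54 (6.56 and 14.3) for shared peaks, with median widths of 486 and 1141 bp. At W12 the median fold was 4.25 (3.54 and 4.96) for W12-only and 7.08 (4.96 and 9.21) for shared peaks, with widths of 392 and 705 bp. In the peaks whose fold fell on a whole pileup step (92.1% at W6 and 83.3% at W12, within 0.01 of a step), the median summit pileup was 8 fragments for W6-only and 15 for shared W6 peaks, and 5 for W12-only and 9 for shared W12 peaks. W12-only peaks in a domain had a median of 6 fragments and those outside 5. Among the 12466 peaks paired with a single peak of the other list, the fold enrichments at W6 and W12 had a Spearman correlation of 0.495 across peaks, which are not independent and share base composition and mappability. In 71.6% of these pairs the W12 peak was the narrower, and the summits lay a median of 170 bp apart.

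The classes also differed in sequence. Summit windows of shared W12 peaks had a median GC content of 52.0%, those of W12-only peaks in a domain 47.0% and those outside 45.0%, and the W6-only peaks stood at 50.3%. Lower-case (repeat-masked) letters filled a median of 7.33% of the window in shared W12 peaks, 12% in W12-only peaks in a domain and 21.7% in those outside. Windows that were at least 50% repeat made up 29.5% (28.5 to 30.6) of W12-only peaks outside a domain, 10.8% of those in a domain, 6.55% of W6-only peaks and 5.43% of shared W12 peaks. Without such windows 63.4% of the W12-only peaks were in a domain. The part of repeats in the W12-only class was not tested further.

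The share of windows holding each motif string differed by a few percentage points between classes. The strings were searched one by one, so their matches may overlap. RUNX letters (TGTGGT) were in 22.5% of W12-only peaks in a domain, against 19.7% of all W12 peaks and 18.3% of all W6 peaks. AP1 letters were in 11.7% of that class, against 9.25% of all W12 peaks, and SOX letters in 14.9% against 13.2%. W12-only peaks outside a domain held AP1 letters in 7.56% and SOX letters in 15.8%, and W6-only peaks held them in 8.52% and 12%. GATA letters, which are rich in A and T, were in 15.2% and 15.8% of the W12-only classes and in 10.4% of shared W12 peaks. TEAD letters were in 14.6% of shared W12 peaks, 16.4% of W12-only peaks in a domain and 15.0% of those outside. GLI letters, which are rich in G and C, were rare in every class, from 0.491% of W6-only peaks outside a domain to 1.41% of shared peaks outside one. A match is a description of the letters and not a binding site.

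The neighbourhood of Klf5 held the most W12-only peaks in H3K4me1. Klf5 (ENSMUSG00000005148, chr14:99298691-99315036), a zinc-finger factor of proliferating epithelia, was the nearest protein-coding gene of 19 such peaks, with folds from 3.54 to 8.50, at distances of 8.29 to 401 kb. Counted with peaks outside a domain as well, Adgrl2 (27), Med13l (21) and Foxp1 (21) had more W12-only peaks than Klf5 (19). Klf5 also had 18 shared and 13 W6-only peaks at W6, so its neighbourhood held 31 peaks at W6 and 43 at W12. Of the 19, 12 had been seen at D0, W1 or W2. Gata3 (chr2:9857078-9890034), a factor of epidermis and inner root sheath, had 14 with folds of 3.54 to 9.21, at a median distance of 397 kb, and 13 W6-only peaks beside them.

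Jag1 (chr2:137081456-137116644), a Notch ligand of basal and hair follicle epithelium, had 17 W12-only peaks in a domain and 5 W6-only peaks, with 16 peaks in all at W6 and 31 at W12. Med13l (chr5:118560679-118765438), a subunit of the Mediator kinase module, had 18, of which 6 had been seen earlier. The forkhead genes Foxp1 (chr6:98925338-99522721) and Foxn3 (chr12:99190078-99563582) had 15 each and both had 10 W6-only peaks. Arhgef3 (chr14:27114899-27403911), a guanine nucleotide exchange factor, had 15, within 58.9 kb of its start sites, beside 4 W6-only peaks. Adgrl2 (chr3:148815583-148990555), a latrophilin receptor, had 17, together with 10 outside a domain and 20 W6-only peaks, and so ranked among the 8 leading genes in both directions. Ranking was by count and not by share. Counting peaks in and outside a domain, W12-only peaks were 19 of 43 W12 peaks at Klf5 and 16 of 33 at Gata3. They were 21 of 31 at Med13l, 20 of 31 at both Jag1 and Foxn3, and 17 of 25 at Arhgef3. At Foxp1 they were 21 of 29 and at Adgrl2 27 of 48, against 51.9% of all W12 peaks. All 8 had a promoter peak at both time points. Gata3 was tied with 4 other genes at 14 and was taken by alphabetical order.

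Lrig1 and Nfib had the most W6-only peaks. Lrig1 (ENSMUSG00000030029, chr6:94604529-94700158), a negative regulator of EGF receptors and a marker of stem cells in the upper hair follicle, was nearest to 27 W6-only peaks with folds of 3.79 to 11.3, against 6 W12-only peaks, and went from 38 peaks at W6 to 17 at W12. Nfib (chr4:82290173-82705750), a chromatin factor of hair follicle stem cells, also had 27, with 9 W12-only peaks, 40 peaks at W6 and 25 at W12. Of the 27 W6-only peaks at Lrig1, 17 were seen before W6, and at Nfib 22 were. Runx1 (chr16:92601466-92826149), a RUNX factor of hair follicle stem cells and of skin tumours, had 24 W6-only against 12 W12-only peaks.

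The other leading genes were Rad51b (recombination repair, 22 W6-only peaks), Tns3 (tensin 3 of focal adhesions, 22), Tbl1xr1 (a corepressor subunit, 21), Tgif1 (a homeodomain corepressor in TGF-beta signalling, 21) and Adgrl2 (20). Rad51b had 9 W12-only peaks, Tns3 had 9 and Tgif1 had 6, while Tbl1xr1 had 16, of which 9 were outside a W12 domain. This ranking too was by count and not by share. W6-only peaks were 24 of 45 W6 peaks at Runx1, 22 of 45 at Rad51b and 22 of 31 at Tns3. They were 21 of 34 at both Tbl1xr1 and Tgif1 and 20 of 40 at Adgrl2, against 50.2% of all W6 peaks. The highest W6-only fold among the 8 genes was 14.9, at Tgif1. Each of the 8 also kept shared peaks, from 9 at Tns3 to 23 at Rad51b, and a promoter peak at both time points. Adgrl2 was tied with 2 other genes at 20.

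**Figure D4:**
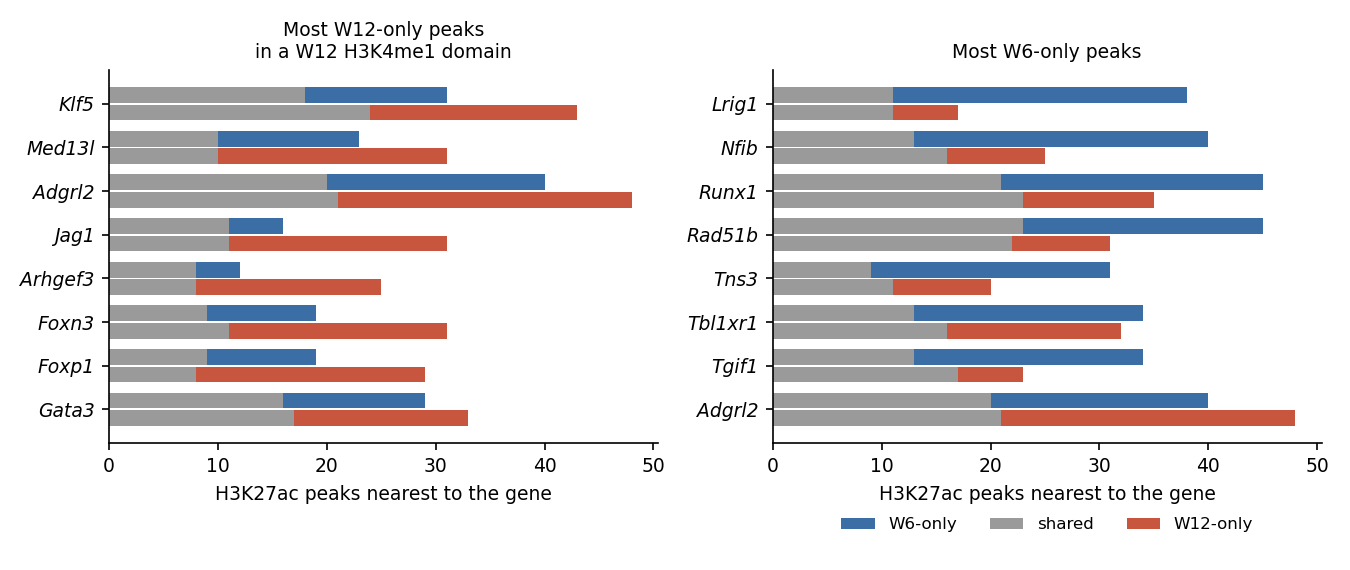
The bars count H3K27ac peaks whose nearest protein-coding start site belongs to the gene, for the 8 genes with the most W12-only peaks in H3K4me1 (left) and the 8 with the most W6-only peaks (right); the upper bar of each gene is W6 and the lower W12, grey is shared, blue W6-only and red W12-only. Klf5 has 31 peaks at W6 and 43 at W12, Jag1 16 and 31, Lrig1 38 and 17, and Nfib 40 and 25.

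Ranked by score alone, the leading unshared peaks were not at these loci. The 8 top W6-only peaks in a W12 domain had scores of 797 to 1695 and all 8 had an H3K27ac peak at D0. The highest was 378 bp wide at chr9:123461802-123462179, in an annotated exon 16.5 kb from Limd1 (a LIM-domain protein), with a score of 1695 and a fold of 23.3. The next lay in an intron of the gephyrin gene Gphn with a score of 1414. A pair were promoter peaks, at Ccdc12 (coiled-coil protein, fold 44.1, score 1152) and at Cdc7 (a kinase for replication origins, fold 33.4, score 797). The others were near Filip1l, Tmem107, Wdr5 and Olfr1423. In 3 of the 8 windows, those of Limd1, Gphn and Filip1l, fewer than 50% of the 32-base stretches occurred once in the chromosomes of GRCm38.

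The 8 top W6-only peaks outside a domain had scores of 504 to 1360, again all with a peak at D0, and included peaks near Gm10800, Rdm1, Cdk8, Zfp692, Btn1a1, Gpd2 and Myom2. The peak at chr2:98664898-98665197 near Gm10800 had a fold of only 6.03 at a score of 1360 and lay between shared peaks of the same locus. Unlike the top W12-only peaks, none of these 16 W6-only windows was at least 50% repeat.

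The 8 top W12-only peaks in a domain had scores of 221 to 395, and 3 of them had been seen at an earlier time point. The highest was 330 bp wide at chr4:152016967-152017296, in an exon 8.16 kb from Klhl21 (an adaptor of a cullin ubiquitin ligase), with a fold of 21.3. The single promoter peak was that of Gbp2, a guanylate-binding protein induced by interferon, at chr3:142619431-142620983, 1553 bp wide with a fold of 16.5, and it had also been called at D0. Intronic peaks were near Dnah17 (axonemal dynein, fold 17.0), Rbms3 (an RNA-binding protein, 16.3), Adgrl3 (a latrophilin, 14.9) and Meis2 (a homeodomain factor, 14.9). Windows at Denr, Adgrl3, Meis2 and Atg10 were at least 50% repeat.

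The 8 top W12-only peaks outside a domain had scores of 325 to 587 and were near Map2k6, Tmem181a, Cacna1b, Rasgef1b, Tmem26, Dusp5, Nr5a2 and Grm8. The highest, at chr11:110567587-110567926, lay between genes 168 kb from Map2k6, a kinase of the p38 pathway, with a fold of 28.3. Of these 8, 7 had windows at least 50% repeat and 1 had an earlier peak, that of Nr5a2, at D0. None lay at a promoter, and none lay in a W6 H3K4me1 domain.

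The 5 with the highest W12 scores, from 9766 to 35442, were at chr2:98666256-98667326 and chr2:98662232-98664086 (Gm10800 and Gm10801), chr14:19415721-19419668 (Gm21738), chr9:3000009-3038392 (Gm10719) and chr9:35305224-35305587 near Rpusd4. All 5 lay outside a W12 domain and all had a D0 peak. In 4 of them the window was at least 50% repeat, and in 4 fewer than 50% of the 32-base stretches occurred once. Reads from such copies cannot be assigned to a single locus.

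Hair follicle and Hedgehog genes had a larger share of W6-only peaks than the 50.2% of all W6 peaks. Of 173 W6 peaks nearest to 20 genes of hair follicle stem cells and outer root sheath, 109 (63.0%) had no W12 peak, and of 143 W12 peaks 57 (39.9%) had no W6 peak, against 51.9% of all W12 peaks. With the nearest start site of any gene, 56.1% of 57 W6 and 30.5% of 59 W12 peaks of this list were unshared, so the W6 excess was smaller. Sox9 itself had 13 W6-only and 9 W12-only peaks, and its promoter folds were 25.6 at W6 and 9.92 at W12. Reads of the Sox9 transgene and of the native gene cannot be told apart within its exons. Gas1 (a Hedgehog co-receptor) had 15 W6-only and 4 W12-only peaks, Tcf7l2 (a Wnt effector) had 6 and 7, and Nfatc1 (a factor of stem cell quiescence) had 10 and 2. Promoter peaks were found at both time points for 8 of the 20 genes, against 34.3% of all protein-coding genes. At W6 alone they were found for 4 (Nfatc1, Krt15, Id2 and Dkk3), against 14.0%, and at W12 alone for none, against 1.87%.

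In the Hedgehog pathway, 37 of 54 W6 peaks (68.5%, against 50.2% of all) and 29 of 49 W12 peaks (59.2%, against 51.9%) were unshared. Boc, a co-receptor of Hedgehog ligands, had 15 W6-only peaks and 1 W12-only peak. Gli2, the main transcriptional activator of the pathway, had 8 W6-only and 9 W12-only peaks, 8 of the latter in a domain, and a promoter peak at W6 alone (fold 7.16). Gli3, mainly a repressor, had 3 and 9, of which 7 were outside a domain, and a promoter peak at W6 alone (fold 8.35). The receptor Ptch1, a target of the pathway, had 2 and 2 with promoter folds of 11.9 and 7.79, and Cdon had 0 and 2. Promoter peaks were present at both times for 4 of 16 genes, against 34.3% of all protein-coding genes. At W6 alone they were present for 5, against 14.0%, the others being Sufu (fold 25.6), Disp1 and Kif7. When the nearest start site of any gene was used, the Hedgehog list kept 27 W6 and 12 W12 peaks, of which 77.8% and 33.3% were unshared, so its W12 value rests on how far peaks are assigned.

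Epidermal identity genes had fewer unshared peaks than the whole list in both directions, 139 of 298 (46.6%) at W6 and 103 of 275 (37.5%) at W12. Of their 103 W12-only peaks, 85.4% lay in a W12 domain, against 57.8% of all W12-only peaks. Trp63, the master regulator of stratified epithelia, had 19 W6-only and 11 W12-only peaks, Grhl2 had 14 and 6, and Klf4, a factor of terminal differentiation, had 13 and 10. Of the 26 genes, 22 had promoter peaks at both times and 2 at W6 alone (Gata6 and Dsg1a), against 34.3% and 14.0% of all protein-coding genes. The basal keratinocyte genes Krt5, Krt14, Trp63, Itga6, Itgb4 and Col17a1 all had promoter peaks at both, with folds of 11.3 to 22.7 at W6 and 8.50 to 16.3 at W12.

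The RUNX, AP1 and NF-kB factors had 80 of 165 W6 peaks (48.5%, against 50.2% of all) and 57 of 155 W12 peaks (36.8%, against 51.9%) unshared. Nfkb1 had 8 W6-only and 8 W12-only peaks, Fosl2 had 11 and 5, Runx2 had 6 and 6, and the NF-kB inhibitor gene Nfkbia had 3 and 3. Promoter peaks were present at both times for 16 of the 19, against 34.3% of all protein-coding genes. Atf3, a stress-induced factor, was the 1 gene with a promoter peak at W6 alone, at a fold of 12.5.

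Wnt genes had 66 of 105 W6 peaks (62.9%, against 50.2% of all) and 49 of 99 W12 peaks (49.5%, against 51.9%) unshared. With the nearest start site of any gene, 53.7% of 54 W6 and 40.4% of 57 W12 peaks were unshared. The receptor gene Fzd7 had 12 W6-only and 4 W12-only peaks, and its promoter peak, of fold 13.7, was at W6 alone. The ligand gene Wnt7b had 8 and 6, and its promoter peak, of fold 4.96, was at W12 alone. Rnf43 (a brake on Frizzled receptors) had 5 and 3, Ctnnb1 (beta-catenin) 5 and 4, and Axin2 (a feedback inhibitor) 5 and 2. Promoter peaks were present at both times for 9 of 24 genes, at W6 alone for 6 and at W12 alone for 3, against 34.3%, 14.0% and 1.87% of all protein-coding genes. The 3 were the ligand genes Wnt3, Wnt5a and Wnt7b.

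TGF-beta and BMP genes had 69 of 120 W6 peaks (57.5%) and 65 of 120 W12 peaks (54.2%) unshared, near the values of all peaks. With the nearest start site of any gene, 47.8% of 46 W6 and 40.5% of 42 W12 peaks were unshared. Tgfbr2, the type II receptor, had 9 W6-only and 8 W12-only peaks, and its promoter fold was 16.1 at W6 and 19.1 at W12, one of the 9.46% of promoters that were higher at W12. Inhba had 6 and 6, Tgfbr3 6 and 2, the inhibitory Smad7 4 and 9, and the ligand gene Bmp7 had 11 and 3. The promoter of Bmp7 had a peak at W6 alone, of fold 16.1. Of the 22 genes, 4 had a promoter peak at W6 alone (against 14.0% of all genes) and 2 at W12 alone (against 1.87%), Bmp2 (fold 7.08) and Tgfb2 (fold 5.67). Tgfb2 had no W6 peak nearest to it and 6 at W12, 5 of them in a domain.

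Genes of wounded and stressed keratinocytes had 21 of 50 W6 peaks (42.0%, against 50.2% of all) and 35 of 68 W12 peaks (51.5%, against 51.9%) unshared. Of these 35, 33 (94.3%) lay in a W12 domain. Hif1a, the oxygen-regulated factor, accounted for 12 of the 35, with 14 peaks at W6 and 23 at W12 and promoter folds of 16.7 and 16.3. Stat3 had 4 W6-only peaks and 1 W12-only peak, the EGF-family ligand gene Areg 2 and 6, the chemokine gene Cxcl1 1 and 3, and Krt6a, the wound keratin, 1 and 1. Promoter peaks at W12 alone were found for 3 of the 20 genes, against 1.87% of all genes, and these were Cxcl2 (fold 4.96), Il24 (7.08) and Plaur (3.54). At W6 alone they were found for Sprr1b and Ereg. These 3 were among 12 genes of all 14 lists with a promoter peak at W12 alone, which are all named here and were singled out after their values were seen.

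EMT and mesenchymal regulators had 12 of 36 W6 peaks (33.3%, against 50.2% of all) and 25 of 52 W12 peaks (48.1%, against 51.9%) unshared, with 13 of the 25 outside a domain. With the nearest start site of any gene, 28.0% of 25 W6 and 25% of 28 W12 peaks were unshared. The epithelial genes Cdh1 (E-cadherin) and Epcam had 3 and 5 W6-only and 0 and 2 W12-only peaks. They kept their promoter peaks with folds of 23.9 and 23.3 at W6 and 12 and 7.79 at W12. Cdh1 and Epcam supplied 14 and 13 of the 36 W6 peaks and 13 and 11 of the 52 W12 peaks. The shares of this list therefore rest largely on epithelial genes and do not describe its mesenchymal members. Tnc, an extracellular matrix gene, had 2 and 6, Zeb2 had 0 and 6, of which 5 were outside a domain, and Snai2 had 0 and 2. Vim was the 1 gene of 13 with a promoter peak at W12 alone, at a fold of 4.25, against 1.87% of all genes. Housekeeping genes, as a reference, had 17 of 47 W6 peaks (36.2%) and 21 of 56 W12 peaks (37.5%) unshared. Of these 20 genes 18 had promoter peaks at both times, against 34.3% of all protein-coding genes. Tfrc and Tuba1b had them at W6 alone with folds of 16.7 and 17.9.

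**Figure D5:**
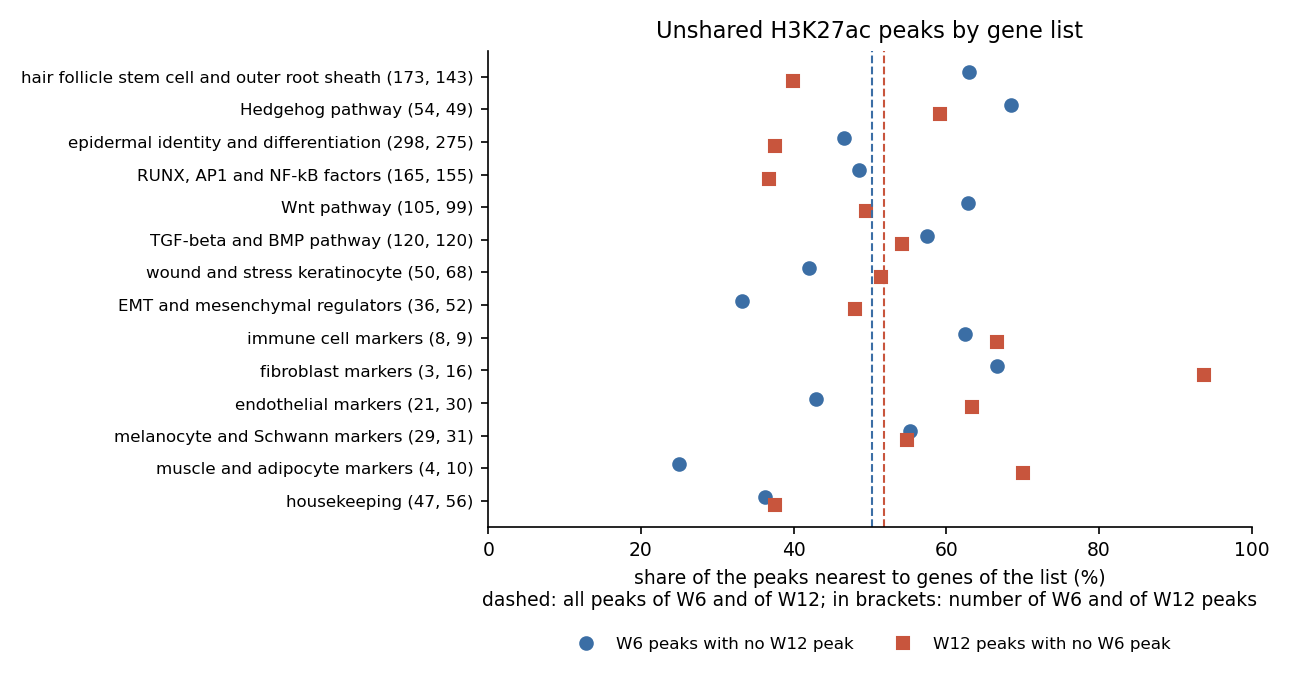
The points give, for 14 gene lists, the share in percent of W6 peaks with no W12 peak (blue circles) and of W12 peaks with no W6 peak (red squares) among peaks nearest to the listed genes; dashed lines mark 50.2% and 51.9% for all peaks, and the numbers in brackets are the W6 and W12 peaks behind each point. Hair follicle genes lie at 63.0% and 39.9%, Hedgehog genes at 68.5% and 59.2%, and fibroblast markers at 66.7% and 93.8% on 3 and 16 peaks.

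Markers of other cell types of skin were also counted. The sort removed cells with CD31, CD45, CD117 (Kit, of melanocytes) and CD140a (Pdgfra, of fibroblasts). Fibroblast marker genes were nearest to 3 peaks at W6 and 16 at W12. Of the 16, 15 were W12-only (93.8%, against 51.9% of all W12 peaks), and 9 of these lay outside a domain. With the nearest start site of any gene, this list kept only 1 W6 and 4 W12 peaks, all of them unshared. Dcn had 4 W12-only peaks, Col3a1 had 3 and Pdgfra had 2, and none of the 12 genes had a promoter peak at either time. Endothelial markers had 21 W6 and 30 W12 peaks, with 9 W6-only (42.9%, against 50.2% of all) and 19 W12-only (63.3%, against 51.9%). Of these 12 genes, 9 had no promoter peak at either time. Flt1 (fold 4.96) and Emcn (fold 3.54) had a promoter peak at W12 alone, against 1.87% of all genes. The promoter fold of Pecam1 was 4.77 at W6 and 14.9 at W12. By count, Pecam1 and Tek went the other way, with 2 W6-only peaks and 1 W12-only peak each. Pecam1 encodes CD31, one of the surface proteins used to remove cells from the sort.

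Immune markers had 8 W6 and 9 W12 peaks, of which 62.5% and 66.7% were unshared, against 50.2% and 51.9% of all peaks. Ptprc (CD45) had 2 W6-only and 4 W12-only peaks, and Cd68 had a promoter peak at W6 alone. Of these 16 genes 10 had no peak nearest to them at either time, T cell and myeloid genes such as Cd3e and Csf1r included. Melanocyte and Schwann markers had 29 and 31 peaks, 16 W6-only (55.2%) and 17 W12-only (54.8%), near the values of all peaks. Dct (a melanin enzyme) had 3 W6-only and 6 W12-only peaks, and Mbp (a myelin protein) had 4 and 5. Mitf had 5 and 3, Sox10 2 and 0, Tyrp1 2 and 1, and Kit 0 and 2. Muscle and adipocyte markers had 4 and 10 peaks, 7 of them W12-only, and Pparg had a promoter peak at W12 alone (fold 3.54). With the nearest start site of any gene, immune markers kept 3 W6 and 4 W12 peaks, and muscle and adipocyte markers kept 2 and 6. Endothelial markers kept 14 and 20, and melanocyte and Schwann markers kept 12 and 10. The part of such cells in the W12-only peaks was not tested.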

How the data were processed

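EpdSC H3K27ac and H3K4me1 were profiled by MINT-ChIP. The authors demultiplexed read pairs by barcode, trimmed them with Skewer, aligned them to mm10 (GRCm38) with Bowtie2 2.2.9, discarded duplicate pairs (Picard) and pooled the replicates of a time point (SAMtools 1.9). They called H3K27ac peaks with MACS2 2.1.1 and H3K4me1 domains with epic2, and SICER 0.0.36 is also listed in the submitters' processing notes. Caller settings and the control used are not given in the sources used here. The deposited peak lists give, as made by the authors, a score per peak that grows with its q-value's −log10, a fold enrichment at the summit as a ratio over background, and p-values and q-values as −log10. The deposited domain lists give an epic2 p-value, which was not used further. No column was left unmapped (0).

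Python 3.11.15 with pandas 2.3.3, NumPy 2.4.6, SciPy 1.17.1 and matplotlib 3.10.9 was used. Peaks were matched by an overlap of at least 1 bp, assigned to the nearest start site of a protein-coding gene (GENCODE M21 basic, GRCm38), and called distal when over 2500 bp from any start site. A promoter peak lay within 1000 bp of a start site. Letters and repeats were read in 300 bp centred on the summit. Shares have exact Clopper-Pearson 95% intervals. The replicates were pooled before peak calling, so no test between W6 and W12 was made. The background pileup was recovered from the steps of the fold values. The overlap and counting steps were tested on simulated data.

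Named were the 8 genes nearest to the most W12-only peaks in a W12 domain, the 8 nearest to the most W6-only peaks, the 8 highest-scoring peaks of each unshared class, the 5 highest-scoring shared peaks, the 3 windows of 1 Mb with the most W12-only peaks, and up to 5 members of each of the 14 gene lists with the most peaks, with other members named only beside a count. The peaks compared and the gene lists were chosen with earlier results of these data known. The alternatives were a 50% overlap, a q-value below 0.01, lists of equal length, nearby peaks joined, chromosomes X and Y left out, W6 in place of W12 domains, widened domains and a 10000 bp distal limit. The nearest gene of 1 of the highest-scoring peaks is not reported here.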

Additional observations from a re-analysis of the deposited data

How the results depend on the processing

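No paired analysis was possible because each list pools the replicates of its time point, and leaving out a replicate could not be run for the same reason. Of 54 alternative values for the shares below, 14 stayed within the counting interval and 40 moved. The share of W6 peaks with no W12 peak was 54.5% with an overlap of 50%, 51.8% at a q-value below 0.01 (30343 W6 and 27485 W12 peaks), 42.1% with 15258 peaks in each list, 45.8% with peaks under 1000 bp apart joined and 49.6% without repeat windows. In that order the share of W12 peaks with no W6 peak was 55.8%, 43.1%, 37.4%, 53.6% and 48.1%. W6-only peaks lay in an H3K4me1 domain in 91.4% with an overlap of 50%, 93.6% at equal length, 94.3% with joined peaks, 95.4% without chromosomes X and Y, 97.1% with W6 domains and 96.6% with domains widened by 1000 bp. For W12-only peaks that share was 58.7% with an overlap of 50%, 65.6% at the stricter q-value, 83.2% at equal length, 54.4% with joined peaks, 56.4% with W6 domains, 61.9% with widened domains and 63.4% without repeat windows. The distal share of W6-only peaks was 39.5% at equal length, 40.2% at 10000 bp and 61.7% without repeat windows. That of W12-only peaks was 83.4% with an overlap of 50%, 83.9% at the stricter q-value, 80.3% at equal length, 86.3% joined, 58.9% at 10000 bp and 83.7% without repeat windows. The share seen before W6 was, for W6-only peaks, 65.0% with an overlap of 50%, 70.4% at the stricter q-value, 92.4% at equal length and 70.4% without repeat windows, and for W12-only peaks 27.5% at the stricter q-value, 58.2% at equal length, 19.2% joined and 23.2% without repeat windows. The cause was not tested. The counts of genes by promoter peak stayed within 1.5 times in 9 of 9 alternatives. All 28 gene list counts were smaller by over 1.5 times when the nearest start site of any gene was used. Leaving out repeat windows and the promoter alternatives were chosen after seeing the data. Read totals are unknown, and a missing peak does not show that the mark was absent.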

Other observations

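The windows of 1 Mb with the most W12-only peaks also held shared and W6-only peaks. The window with the most was chr15:59000001-60000000, with 35 W12-only peaks, 28 of them in a W12 H3K4me1 domain, among 58 W12 peaks and 37 W6 peaks, 15 of which were W6-only. Of the 35, 15 were nearest to Trib1, a pseudokinase gene, and 10 to Mtss1, a gene of membrane and actin dynamics. The next window, chr11:117000001-118000000, held 30 among 71 W12 peaks, of which 13 were nearest to Sept9, a septin gene, and it held more W6-only peaks, 37 among 70. A set of 3 windows had 28 each, among 62, 46 and 60 W12 peaks, beside 13, 20 and 22 W6-only peaks. They lay at Sh3pxd2a on chromosome 19 (14 of the 28 nearest to this gene for a podosome scaffold), at Med13l on chromosome 5 (19) and at Fgfr2 on chromosome 7 (9), the gene of an FGF receptor of keratinocytes. The median window held 6.

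At 907 of 21911 protein-coding genes the W6 list had no peak for which they were the nearest gene, while the W12 list had at least 1 W12-only peak in a domain. The reverse count, of genes with W6-only peaks and no W12 peak, is not given here. Of the 907 genes, 51 had at least 3 W12-only peaks in a domain. The highest number was 5, found for 7 genes. Among them Pxdn (a peroxidase that cross-links collagen IV), Rbpms (an RNA-binding protein) and the ligand gene Tgfb2 also had a promoter peak at W12 alone. Pappa, a protease of the insulin-like growth factor pathway, and the transcription factor gene Dmrt2 had 5 without a promoter peak at either time. These genes were singled out after their values were seen.

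The sex chromosomes stood apart in the split by H3K4me1. Chromosome X held 13.3% of the W6-only peaks outside a W12 domain and 0.965% of those in one, and it held 3.05% and 0.805% of the corresponding W12-only peaks. Of all peaks it held 1.51% at W6 and 1.54% at W12. Shared peaks outside a W12 domain were on it in 15.0% of W6 and 8.2% of W12 cases, so this was not particular to unshared peaks. Chromosome Y had 26 W6 and 32 W12 H3K27ac peaks, with 8 H3K4me1 domains at W6 and 3 at W12.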
